A study of Mus musculus with 29 samples.

Results

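The nuclear genes of the mitochondrial respiratory chain were followed through splenic and hepatic macrophages that had been sorted from wild-type and Rnaset2-/- mice. Members were taken by symbol: genes whose names begin with Nduf, Uqcr, Cox4, Cox5, Cox6, Cox7, Cox8 or Atp5, together with Sdha, Sdhb, Sdhc, Sdhd and Cyc1. A mean RPM (a gene's reads as a share of its library's total, scaled to parts per 1000000) of at least 1 over the 29 libraries was also required. Of 23930 genes in the deposited table, 82 fitted the symbols and 74 of these reached the level. They comprised 32 subunits of complex I, 7 complex I assembly factors, 4 subunits of complex II, 9 of complex III, 10 of complex IV and 12 named for complex V. Complexes were assigned by symbol, so Ndufa4, which is now often placed in complex IV, stands with complex I, and Atp5s and Atp5sl (Dmac2l and Dmac2 in RefSeq) stand with complex V. The other 8 genes lay below 1 RPM: Cox7b2, Atp5c1-ps, Cox8c, Cox8b, Cox4i2, Ndufa4l2, Cox6c and Cox7a1, with means from 0 to 0.788 RPM. The members nearest to the limit were Cox8a, with a mean of 1.41 RPM, and Cox6a2, with 1.61 RPM. Ndufab1, Cox7a2l, Atp5g1, Atp5g2 and the subunits encoded by mitochondrial DNA were not analysed here. Ndufa7, Ndufa12, Ndufb4, Ndufs5, Cox7c, Atp5f1, Atp5h and Atp5l were not among the 82 genes either. The counts by complex are therefore not full sets of subunits.

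The respiratory chain sits in the inner mitochondrial membrane. Complex I takes electrons from NADH and complex II from succinate, complex III passes them from ubiquinol to cytochrome c, and complex IV hands them to oxygen. Complexes I, III and IV pump protons, and complex V, the ATP synthase, lets the protons return and makes ATP. Macrophages are known to shift between glycolysis and oxidative phosphorylation when their activation state changes, and tissue-resident macrophages are often described as relying on respiration. Nuclear respiratory factor 1 (NRF1), ETS-family factors such as GABPA, YY1 and estrogen-related receptors (ERR) are textbook regulators of many of these nuclear genes.

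RNase T2 is a lysosomal ribonuclease encoded in mice by Rnaset2a and Rnaset2b, and the Rnaset2-/- mice, on the C57BL/6 background, lacked both genes. No group received a treatment, and the age of the sorted mice was not given in the sources used here. Ly6Chi and Ly6Clow macrophages were sorted as CD11b+ cells negative for Ly6G, SiglecF and NK1.1, the Ly6Clow cells by Fcgr4 as well, and Kupffer cells as F4/80+ CD11bint Tim4+ cells. The sorting section of the paper differs. There, Fcgr4 was used for both splenic subsets, high on Ly6Clow and low on Ly6Chi cells. Liver macrophages were taken as F4/80+ CD11bhi and Kupffer cells as F4/80+ CD11blo, with no mention of Tim4. From the spleen there were 3 libraries each of Ly6Chi and Ly6Clow cells of wild-type mice, 3 of Ly6Chi and 4 of Ly6Clow cells of Rnaset2-/- mice. From the liver there were 3 libraries each of Ly6Chi and Ly6Clow cells of either genotype and 4 of wild-type Kupffer cells. Rnaset2a and Rnaset2b were not analysed here, so the genotype labels were not checked on the deleted genes. In bulk libraries, fewer cells of a type and less RNA per cell cannot be told apart.

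Libraries held 11175843 to 21167602 reads, and 3 reads, the floor taken for detection, amounted to 0.142 to 0.268 RPM. The splenic Rnaset2-/- Ly6Chi libraries were the deepest of all, with at least 20404155 reads each. All 6 liver Rnaset2-/- libraries had Xist at 0 to 0.154 RPM and Y-linked genes at 150 to 291 RPM, whereas liver wild-type Ly6Chi and Ly6Clow libraries had Xist at 321 to 539 RPM, with Y-linked genes at up to 52.0 RPM. Genotype and sex therefore cannot be told apart in the liver. In the spleen, replicate 2 of the 4 Rnaset2-/- Ly6Clow libraries had Xist at 0.781 RPM and Y-linked genes at 301 RPM, whereas the wild-type Ly6Clow libraries had Y-linked genes at 0. Summed RPM of 10 immediate early genes (10 of 10 listed were in the table) was 23705 to 33913 in liver wild-type Ly6Chi and Ly6Clow cells but 1272 to 6830 in liver Rnaset2-/- cells, and 1707 to 2844 in Kupffer cells. All 5 Kupffer cell markers summed to 5302 to 17136 RPM in Kupffer cells, to 5663 to 10752 RPM in liver Rnaset2-/- Ly6Clow cells and to 75.1 to 108 RPM in liver wild-type Ly6Clow cells. The sum does not show the markers 1 by 1. Clec4f is on the list, and the paper reports neither Clec4f nor Tim4 expression in liver Rnaset2-/- Ly6Clow cells. The part of the differences in sex-linked, immediate early and marker genes in the results below was not tested.

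Promoter sequences are shown first, because many members are known to share activator sites. RefSeq (GRCm38.p6) windows from 250 bases before to 50 bases after a gene's start were found for 61 of the 74 members and searched on both strands for 4 words of letters. The NRF1 word, GCGC followed by any base and then TGCGC, lay in the window of 24.6% of the members, against 11.2% of genes with a mean of at least 1 RPM and 5.2% of all genes with a window. The ETS word CCGGAAG lay in 24.6%, against 19.8% and 9.9%, and the YY1 word AAGATGGC in 16.4%, against 5.3% and 3.2%. The ERR word CAAGGTCA lay in 3.3% of members, 1.2% of genes at 1 RPM or more and 1.8% of all genes with a window. These shares describe letters, not bound sites. Ndufs6, Cox6a1 and Sdhd are printed as examples. They hold an NRF1 word and were called higher in Rnaset2-/- cells in at least 1 comparison below. The same holds for Atp5o, Ndufa8 and Ndufa11. Atp5c1 also holds the word and was called lower in liver Ly6Chi cells. Atp5g3, Atp5k, Ndufa5, Ndufa6, Ndufaf4, Ndufaf5, Sdha and Uqcrc1 hold it and were called in no genotype comparison. Whether the word goes with the calls was not tested. The words that lie wholly before the start are in capitals. Ndufs6 also holds the YY1 word 1 time and Sdhd the ERR word 1 time in the searched window, outside the printed runs. Ndufs6 shows the NRF1 word 1 time as searched, Cox6a1 shows it 2 times, the first reading the same on both strands and the second as the reverse complement, and Sdhd 1 time as the reverse complement. The ETS word stands in Cox6a1 and Sdhd as CTTCCGG, its reverse complement. The runs are upstream of each gene, on the minus strand of chr13:73328483-73328513, chr5:115348959-115349135 and chr9:50603874-50603943 in that order.
Ndufs6: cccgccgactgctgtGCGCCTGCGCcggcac
Cox6a1: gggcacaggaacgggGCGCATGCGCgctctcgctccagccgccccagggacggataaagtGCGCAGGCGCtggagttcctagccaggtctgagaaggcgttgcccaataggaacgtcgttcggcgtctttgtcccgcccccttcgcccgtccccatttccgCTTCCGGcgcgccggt
Sdhd: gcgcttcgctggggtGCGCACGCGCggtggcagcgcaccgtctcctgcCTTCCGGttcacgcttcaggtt

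The summed RPM of the 74 members was of the same order in all 9 groups. It was 9273 ± 165 (SD, n = 3) in splenic Ly6Chi and 7691 ± 208 (n = 3) in splenic Ly6Clow cells of wild-type mice, and 10326 ± 257 (n = 3) and 8523 ± 925 (n = 4) in those of Rnaset2-/- mice. In the liver it was 8153 ± 615 (n = 3) in Ly6Chi and 7436 ± 446 (n = 3) in Ly6Clow cells of wild-type mice, 10639 ± 2048 (n = 3) and 9845 ± 1447 (n = 3) in those of Rnaset2-/- mice, and 8976 ± 720 (n = 4) in Kupffer cells. A single library set much of the spread in 3 Rnaset2-/- groups: replicate 1 reached 12987 RPM in liver Ly6Chi cells against 9715 and 9215, 11471 in liver Ly6Clow cells against 9368 and 8697, and 9911 in splenic Ly6Clow cells, where the other 3 libraries held 8048 to 8082. In RPM every Rnaset2-/- library lay above every wild-type library of the same organ and subset, but after scaling the liver Ly6Chi groups overlapped (8292 to 14081 against 9117 to 9956), as did, narrowly, the splenic Ly6Clow groups (8181 to 9560 against 7743 to 8192). Behind these sums single members differed far more. Group means of Cox6a2 and Cox6b2, the muscle and testis isoforms of complex IV subunits, spanned 22.2-fold and 14.6-fold after scaling, and those of Uqcrb, Ndufv3 and Ndufaf7 12.1-fold, 7.23-fold and 5.19-fold, whereas the median member spanned 2.09-fold.

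**Figure D1:**
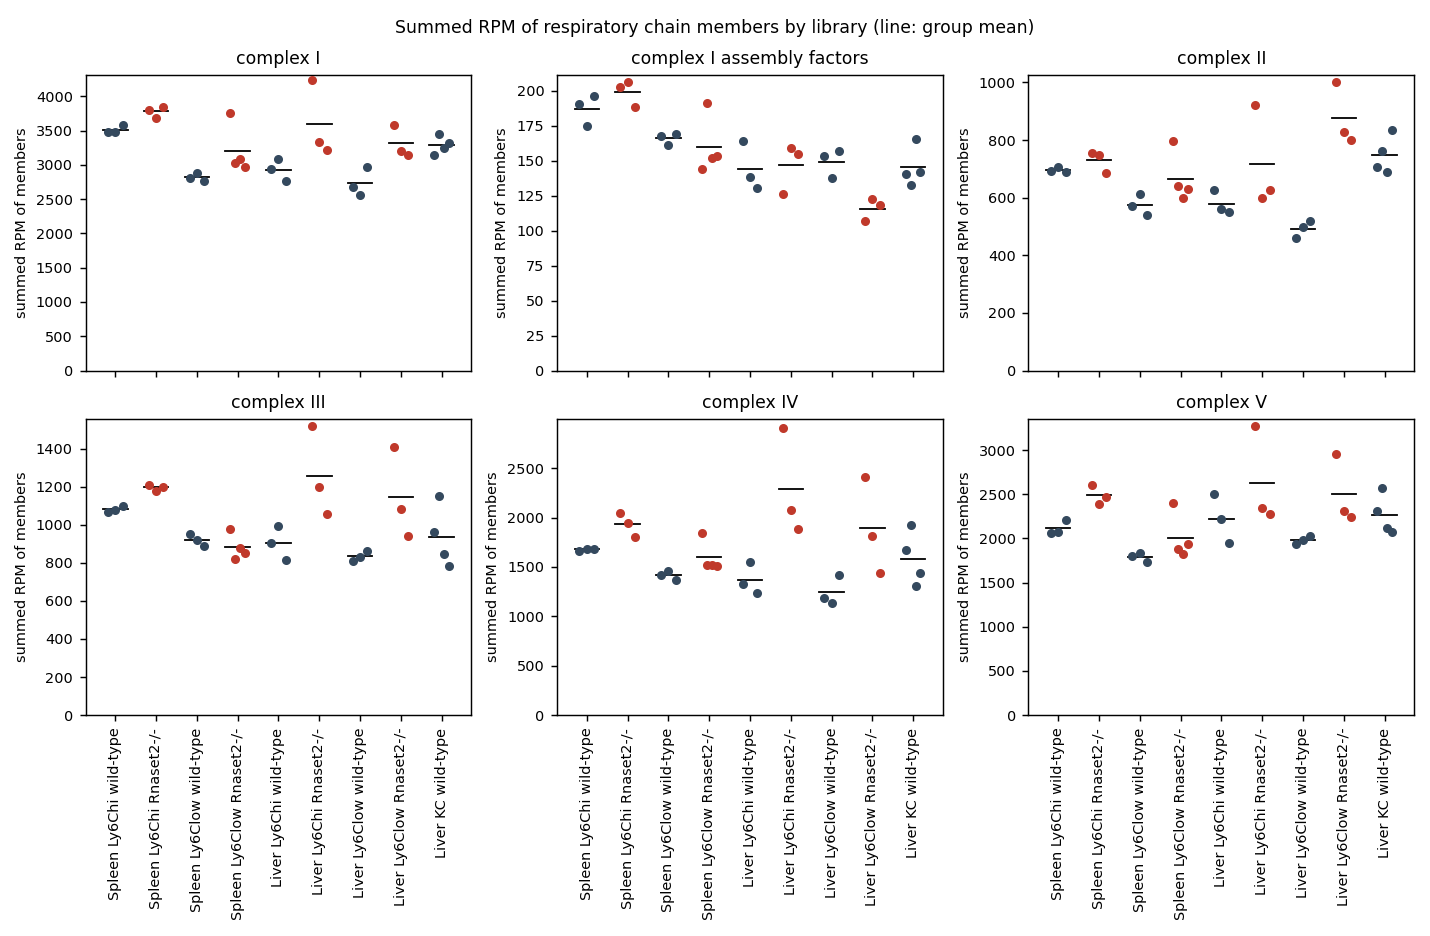
Summed RPM of the members of each complex in every library (points, wild-type dark and Rnaset2-/- red), with group means as lines. For complex IV the liver Rnaset2-/- Ly6Chi libraries, at 1879 to 2908 RPM, lie above the wild-type ones, at 1234 to 1547 RPM, and 1 high library stands out in 3 Rnaset2-/- groups.

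Differences were tested with limma on log2(RPM + 1) after division by relative log expression (RLE) factors, for genes with at least 1 RPM in 3 compared libraries. A member was called when it differed by more than 1.5-fold with an adjusted p below 0.05 over all genes tested, and fold changes on this scale understate those of low genes. Because the labels do not say what the replicates are, the p-values measure the spread between libraries. The comparisons between genotypes, subsets and Kupffer cells share groups and are not independent of each other. Shares of all genes called were counted for this fit alone. Counts of members with RPM as deposited or under other settings therefore have no such share beside them.

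In splenic Ly6Chi cells, the Rnaset2-/- libraries had 10 members called higher and 0 called lower than wild-type, of 72 tested (13.9% and 0%). Of all genes tested, 9.77% were called higher and 12.5% lower. At an adjusted p below 0.05 alone, 31 members were higher and 0 lower, against 19.7% and 18.4% of all genes, and 36 had an unadjusted p under 0.05. The share of all genes under that unadjusted limit was not counted, so the 36 cannot be set against it. DESeq2 and edgeR on the recovered reads, with the same fold limit, also called 0 members lower. The median log2 fold change of the members was 0.26, beside 0.01 for all genes, and became 0.14 beside -0.10 with RPM as deposited, when 3 members were called higher and 0 lower. Complex I contributed 5 of the calls, complexes III and V 2 each and complex II 1, with none among the assembly factors or complex IV.

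Ndufs6, an accessory subunit of complex I near its NADH-oxidising module, was at 20.2, 21.9 and 18.6 RPM in the wild-type splenic Ly6Chi libraries and at 47.2, 41.9 and 38.7 RPM in the Rnaset2-/- libraries. The groups did not overlap, and the log2 fold change was 1.15 ± 0.13 (SE; adjusted p = 9.65e-05). Atp5j, coupling factor 6 of the ATP synthase stalk, was at 140, 132 and 141 RPM against 227, 210 and 227 RPM. It rose by 0.80 ± 0.08 (adjusted p = 7.20e-05), and both calls held under all 13 other settings and left-out libraries. Sdhc, a membrane anchor of complex II, was at 99.9, 106 and 91.9 RPM against 149, 156 and 136 RPM and rose by 0.68 ± 0.10 (adjusted p = 0.000709), and Ndufs4, a complex I subunit, rose by 0.67 ± 0.13 (adjusted p = 0.00266). Both fell just short of 1.5-fold with RPM as deposited (log2 fold changes of 0.56 and 0.56).

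Ndufv3, at the tip of the complex I matrix arm, was at 12.1, 11.4 and 10.6 RPM in the wild-type and 14.9, 29.01 and 18.2 RPM in the Rnaset2-/- splenic Ly6Chi libraries. Here 1 library, replicate 2, was well above the others, and the call (0.87 ± 0.22, adjusted p = 0.0117) was lost without wild-type replicate 3 (adjusted p = 0.0502) and with 1 fit of all libraries (0.112). The remaining calls were Atp5e, Ndufa9, Uqcr10, Uqcrb and Ndufc1, with log2 fold changes between 0.62 and 0.67. In the same libraries, 7 of 7 tested G2/M genes were called higher, their sum being 912 to 1144 RPM against 454 to 474 RPM. The 10 neutrophil markers, of which 10 were in the table, summed to 33438 to 57905 RPM against 30459 to 32688 RPM, and 8 markers of NK and T cells to 95.2 to 212 RPM against 570 to 608 RPM. The part of these cells and of the cell cycle in the result was not tested.

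In splenic Ly6Clow cells, few members differed between the genotypes. Of 73 tested, 1 was called higher (1.37%) and 2 lower (2.74%), beside 4.05% and 4.3% of all genes. At an adjusted p below 0.05 alone there were 2 and 2, beside 4.46% and 4.87%, and 23 members had an unadjusted p under 0.05. How many of all genes had such an unadjusted p was not counted, so the 23 do not show more change than among all genes. The median log2 fold change was 0.17, against 0.01 over all genes. Without wild-type replicates 2 or 3, or Rnaset2-/- replicates 2, 3 or 4, 0 members were called higher, and without wild-type replicates 2 or 3 or Rnaset2-/- replicates 2 or 4 only 1 was lower; without wild-type replicate 1, 2 were higher. DESeq2 and the fit with the replicate number as a block each called 5 higher and 2 lower, edgeR 0 higher and 2 lower, and the fit without a filter 0 higher and 1 lower.

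The members called in the splenic Ly6Clow cells included a pair of complex III subunits. Uqcr10, a small subunit of that complex, was at 102, 121 and 83.2 RPM in wild-type and 57.4, 45.3, 49.4 and 50.4 RPM in Rnaset2-/- libraries. The groups did not overlap, and it fell by 0.98 on the log2 scale (SE 0.15, adjusted p = 0.00833). The call held without any 1 library and was lost with 1 fit of all libraries (-0.99, adjusted p = 0.0559). Uqcrb, another small subunit of complex III, was at 19.3, 57.0 and 25.8 RPM against 8.04, 9.72, 13.3 and 9.65 RPM and fell by 1.51 ± 0.35 (adjusted p = 0.0330).

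The Uqcrb call in splenic Ly6Clow cells rested on several libraries: the fall was 1.07 without wild-type replicate 2 (adjusted p = 0.0816), and the call was also lost without wild-type replicate 3 (0.1002), Rnaset2-/- replicate 2 (0.0783) or replicate 4 (0.0593). Ndufb8, a subunit of the complex I membrane arm, was at 23.4, 4.94 and 13.2 RPM against 48.0, 36.1, 41.9 and 29.4 RPM, higher by 1.63 ± 0.41 (adjusted p = 0.0430). Its difference was 1.08 without wild-type replicate 2 (adjusted p = 0.0840), and the call was lost without wild-type replicate 3 or Rnaset2-/- replicates 2, 3 or 4 (0.0585 to 0.125). Of the 14 other settings and left-out libraries, Uqcrb kept its call in 9 and Ndufb8 in 6. In replicate 1 of the Rnaset2-/- group the neutrophil markers summed to 38830 RPM and 6 erythroid markers (of 9 listed) to 718 RPM, against 3244 to 21885 RPM and 34.9 to 91.8 RPM in the other 3 libraries. Erythroid and neutrophil sums were 3.02 to 7.07 and 1017 to 2349 RPM in wild-type splenic Ly6Clow cells. Their part was not tested. Without Rnaset2-/- replicate 2, the library with Y-linked reads, the log2 difference was -0.91 for Uqcr10 (adjusted p = 0.0234), -1.49 for Uqcrb and 1.67 for Ndufb8 (adjusted p = 0.0911).

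**Figure D2:**
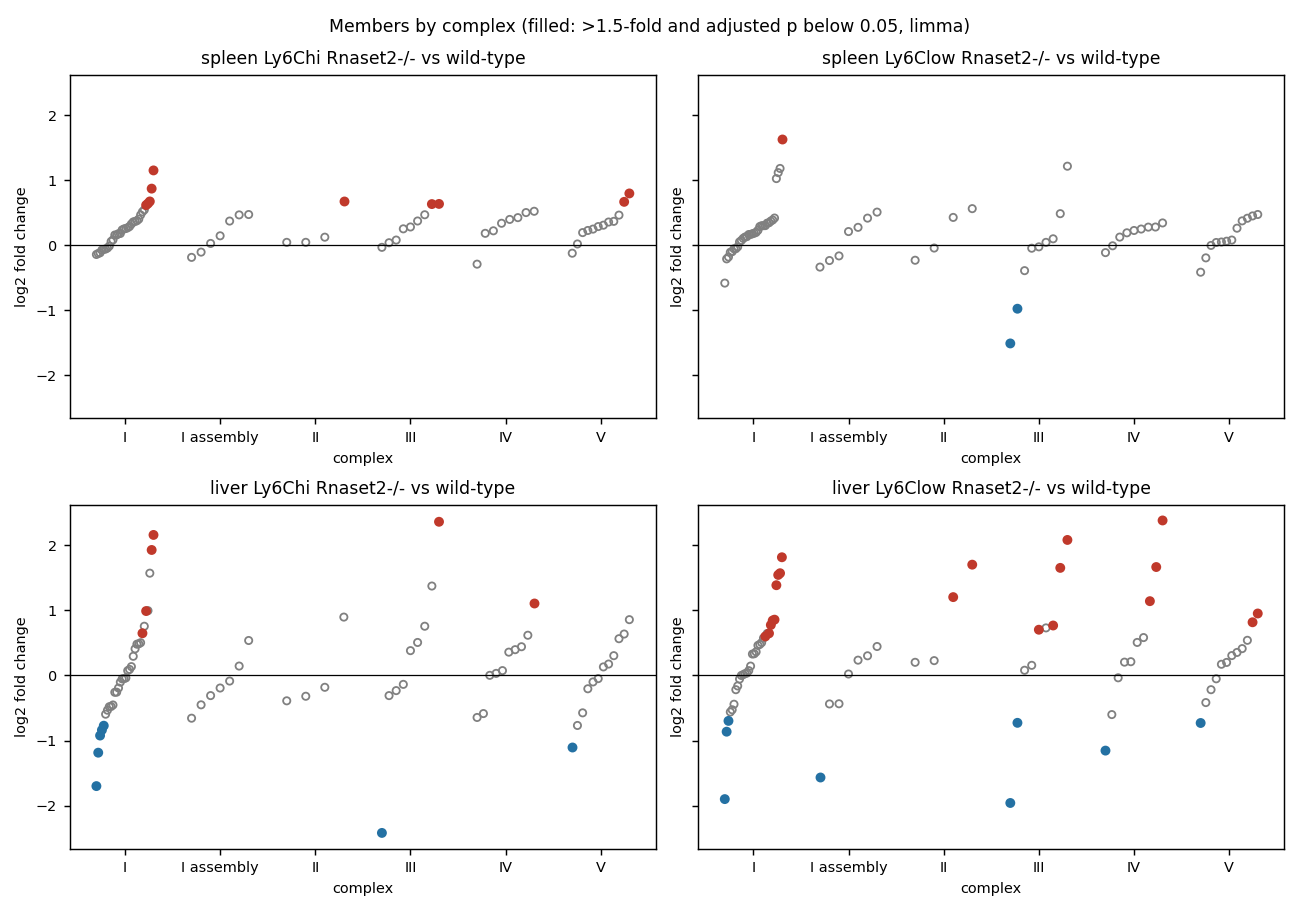
Log2 fold change of each member tested between Rnaset2-/- and wild-type cells, by complex, in splenic and hepatic Ly6Chi and Ly6Clow cells (points are members, filled if past 1.5-fold and an adjusted p of 0.05). The splenic Ly6Chi panel holds 10 filled points, all higher, the splenic Ly6Clow panel 1 higher and 2 lower, and the liver panels hold both directions (6 and 7, and 20 and 8). The 20 include Cox6a2, which entered the liver Ly6Clow test only through the Rnaset2-/- libraries. The 8 include Cox6b2, which entered it through the wild-type libraries.

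In liver Ly6Chi cells, 6 members were called higher in Rnaset2-/- cells and 7 lower, of 74 tested (8.11% and 9.46%), when 15.7% and 14.9% of all genes were. By the adjusted p alone, 6 and 7 passed, beside 15.9% and 15.3% of all genes. The members' median log2 fold change was -0.02, against 0.01 for all genes. With RPM as deposited both medians moved up together, to 0.30 and 0.31, and 22 members were called higher and 4 lower, so the balance of directions here depended on the scaling. One library at a time also moved these counts: 1 member was called higher without wild-type replicates 1 or 3 or Rnaset2-/- replicate 2, and 3 without Rnaset2-/- replicate 3, whereas 4 were lower without wild-type replicate 1 and 16 without Rnaset2-/- replicate 1.

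Uqcrb was the member of largest change in the liver Ly6Chi cells, at 123, 68.4 and 130 RPM in wild-type and 32.8, 21.7 and 17.2 RPM in Rnaset2-/- libraries. It fell by 2.42 on the log2 scale (SE 0.36, adjusted p = 0.00306). Uqcrb lies on chromosome 13 (66900576 to 66905350 in RefSeq GRCm38.p6). Uqcrq, on chromosome 11 (53427922 to 53430831), encodes another subunit of complex III and moved the other way. It was at 8.34, 40.3 and 6.53 RPM against 124, 79.3 and 72.5 RPM, with no overlap, and was higher by 2.36 ± 0.60 (adjusted p = 0.0214). The call for Uqcrq was lost without wild-type replicates 1 or 3 or Rnaset2-/- replicate 2 (adjusted p = 0.0539 to 0.0839) and with edgeR (0.0515), while that for Uqcrb held throughout.

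Complex I of the liver Ly6Chi cells had calls in both directions. Ndufb8 was at 3.24, 27.6 and 2.86 RPM in wild-type and 42.5, 40.3 and 41.1 RPM in Rnaset2-/- libraries (log2 fold change 2.16 ± 0.69, adjusted p = 0.0457), and Ndufb10, a neighbouring membrane-arm subunit, at 19.1, 70.4 and 11.1 RPM against 133, 127 and 105 RPM (1.93 ± 0.56, adjusted p = 0.0336). In both, wild-type replicates 1 and 3 were low and replicate 2 stood between, and both calls were lost without any 1 of wild-type replicates 1 and 3 and Rnaset2-/- replicates 2 and 3 (adjusted p = 0.0652 to 0.157). Of the 13 other settings and left-out libraries, Ndufb8 kept its call in 6 and Ndufb10 in 7. Ndufs6 rose by 0.99 ± 0.26 (adjusted p = 0.0244), a call lost without wild-type replicates 1 or 3 or Rnaset2-/- replicate 2 (0.0568 to 0.0914).

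Lower in the same comparison were Ndufv3, Ndufb5, Ndufs4, Ndufv2 and Ndufb9 of complex I. Ndufv3 was at 65.1, 56.7 and 73.1 RPM against 40.3, 16.6 and 20.5 RPM and fell by 1.70 ± 0.36 (adjusted p = 0.0112). Ndufb5 was at 126, 126 and 84.5 RPM against 74.5, 50.4 and 56.7 RPM and fell by 1.19 ± 0.25 (adjusted p = 0.0112). The Ndufv3 call was lost without wild-type replicate 3 (adjusted p = 0.0526), that of Ndufb5 without wild-type replicate 1 (0.0528), and that of Ndufs4 (-0.92 ± 0.26, 0.0289) without wild-type replicates 1 or 2 or Rnaset2-/- replicates 2 or 3 (0.0768 to 0.0926) and with RPM as deposited (0.101).

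Complex IV and V each had 1 call in the liver Ly6Chi cells, and both held in all 13 other settings. Cox6a1, the widely expressed isoform of a complex IV subunit, was at 257, 286 and 211 RPM in wild-type and 743, 702 and 594 RPM in Rnaset2-/- libraries, higher by 1.12 ± 0.21 (adjusted p = 0.00706). Atp5c1, the gamma subunit that turns within the ATP synthase, was at 341, 210 and 264 RPM against 161, 154 and 148 RPM and fell by 1.10 ± 0.23 (adjusted p = 0.0106). Neither pair of groups overlapped. In these libraries the 5 endothelial markers summed to 270 to 1701 RPM against 36.5 to 69.5 RPM, 8 NK and T cell markers to 387 to 489 RPM against 20.8 to 42.9 RPM, 3 B cell markers to 56.6 to 181 RPM against 0.617 to 2.59 RPM, and 6 erythroid markers to 31.3 to 230 RPM against 0 to 1.84 RPM. Their part was not tested.

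In liver Ly6Clow cells, 28 of 74 members were called between the genotypes, 20 higher (27.0%) and 8 lower (10.8%) in Rnaset2-/- cells. The 20 include Cox6a2, which passed the filter only through the Rnaset2-/- libraries and is given below as a description. The 8 include Cox6b2, which met the filter through the wild-type libraries and is given in the same way. Of all genes tested, 20.2% were called higher and 22.5% lower. At an adjusted p below 0.05 alone, 21 and 10 members passed, beside 21.5% and 23.4% of all genes. The median log2 fold change was 0.27 against 0.01 over all genes, and 0.30 against 0.05 with RPM as deposited, when 22 were called higher and 8 lower. Without wild-type replicate 3, 3 members were called lower, without Rnaset2-/- replicate 2, 4 and without replicate 3, 5.

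Complex II had the highest median of the complexes in the liver Ly6Clow cells (0.72), and 2 of its 4 members were called. Sdhb, its iron-sulfur subunit, was at 56.1, 47.1 and 63.9 RPM in wild-type and 271, 185 and 131 RPM in Rnaset2-/- libraries. It rose by 1.70 ± 0.26 (adjusted p = 0.00127), with the lowest Rnaset2-/- library above the highest wild-type one. Sdhd, the other membrane anchor, was at 110, 166 and 137 RPM against 339, 286 and 347 RPM and rose by 1.20 (adjusted p = 0.00261). Sdha, the flavoprotein subunit, was at 184, 159 and 217 RPM against 240, 235 and 186 RPM, groups that overlapped, and was not called; nor was Sdhc.

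Complex IV held calls in both directions. Cox6a2 (chromosome 7, 128205435 to 128206366) was at 0.083, 0.610 and 0.089 RPM in the wild-type Ly6Clow libraries of the liver, the first and the last of which lie below the 3-read floor of 0.248 to 0.268 RPM, and at 3.54, 10.3 and 4.52 RPM in the Rnaset2-/- libraries. All 3 wild-type libraries were under the 1 RPM limit, so Cox6a2 entered the test only through the Rnaset2-/- libraries, in which it is high, and without any 1 of these it was not tested. Its difference on the log2(RPM + 1) scale, 2.38 ± 0.38 (adjusted p = 0.00159), is therefore given as a description. Cox5a, a structural subunit of complex IV, was tightly grouped, at 66.0, 66.0 and 60.0 RPM against 235, 175 and 229 RPM (1.67 ± 0.18, adjusted p = 0.000256). Cox6a1 rose by 1.14 (adjusted p = 0.00678), much as in the Ly6Chi cells. Cox6b2, at 3.06, 3.31 and 3.67 RPM against 2.001, 0.467 and 0.766 RPM, fell by 1.16 ± 0.32 (adjusted p = 0.0188). The fall of Cox6b2 was lost without wild-type replicates 2 or 3 or Rnaset2-/- replicate 2 (0.0626 to 0.0810). Only 1 Rnaset2-/- library reached 1 RPM, so Cox6b2 met the filter through the wild-type libraries, in which it is high. Its fall is therefore given as a description too.

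Complex III of the liver Ly6Clow cells again showed opposite directions. Uqcrb was at 78.5, 145 and 85.1 RPM in wild-type and 34.5, 21.2 and 22.3 RPM in Rnaset2-/- libraries and fell by 1.96 ± 0.30 (adjusted p = 0.00125), whereas Uqcrq was at 26.8, 5.75 and 27.6 RPM against 96.1, 73.2 and 60.3 RPM and rose by 2.08 ± 0.51 (adjusted p = 0.0113). Uqcr10 was at 49.2, 35.3 and 73.8 RPM against 220, 139 and 149 RPM and rose by 1.65 (adjusted p = 0.00264), in contrast to its fall in splenic Ly6Clow cells. Cyc1, the haem-carrying cytochrome c1, and Uqcr11 rose by 0.77 and 0.70, and Uqcrfs1, the Rieske iron-sulfur protein, fell by 0.73.

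In complex I of these cells 9 members were called higher and 3 lower. Ndufb8 was at 16.8, 3.83 and 14.2 RPM in wild-type and 51.5, 39.7 and 27.9 RPM in Rnaset2-/- libraries (1.82 ± 0.46, adjusted p = 0.0138), and Ndufc2 at 20.03, 10.98 and 14.9 RPM against 53.4, 41.3 and 48.6 RPM (1.57, adjusted p = 0.00120). Both groups were apart in both genes. Ndufv3 was at 62.4, 67.5 and 57.3 RPM against 18.5, 13.2 and 17.99 RPM and fell by 1.90 ± 0.20 (adjusted p = 0.000236). Ndufs4 fell by 0.86 ± 0.24 (adjusted p = 0.0205), a call lost without wild-type replicate 3 or Rnaset2-/- replicates 2 or 3 (0.0536 to 0.0900). Ndufaf7, an assembly factor that methylates a complex I subunit, was at 62.7, 53.8 and 66.4 RPM against 18.4, 20.3 and 23.3 RPM and fell by 1.56 ± 0.18 (adjusted p = 0.000358). Of complex V, Atp5b, the catalytic beta subunit, rose by 0.82 and Atp5sl fell by 0.73.

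**Figure D3:**
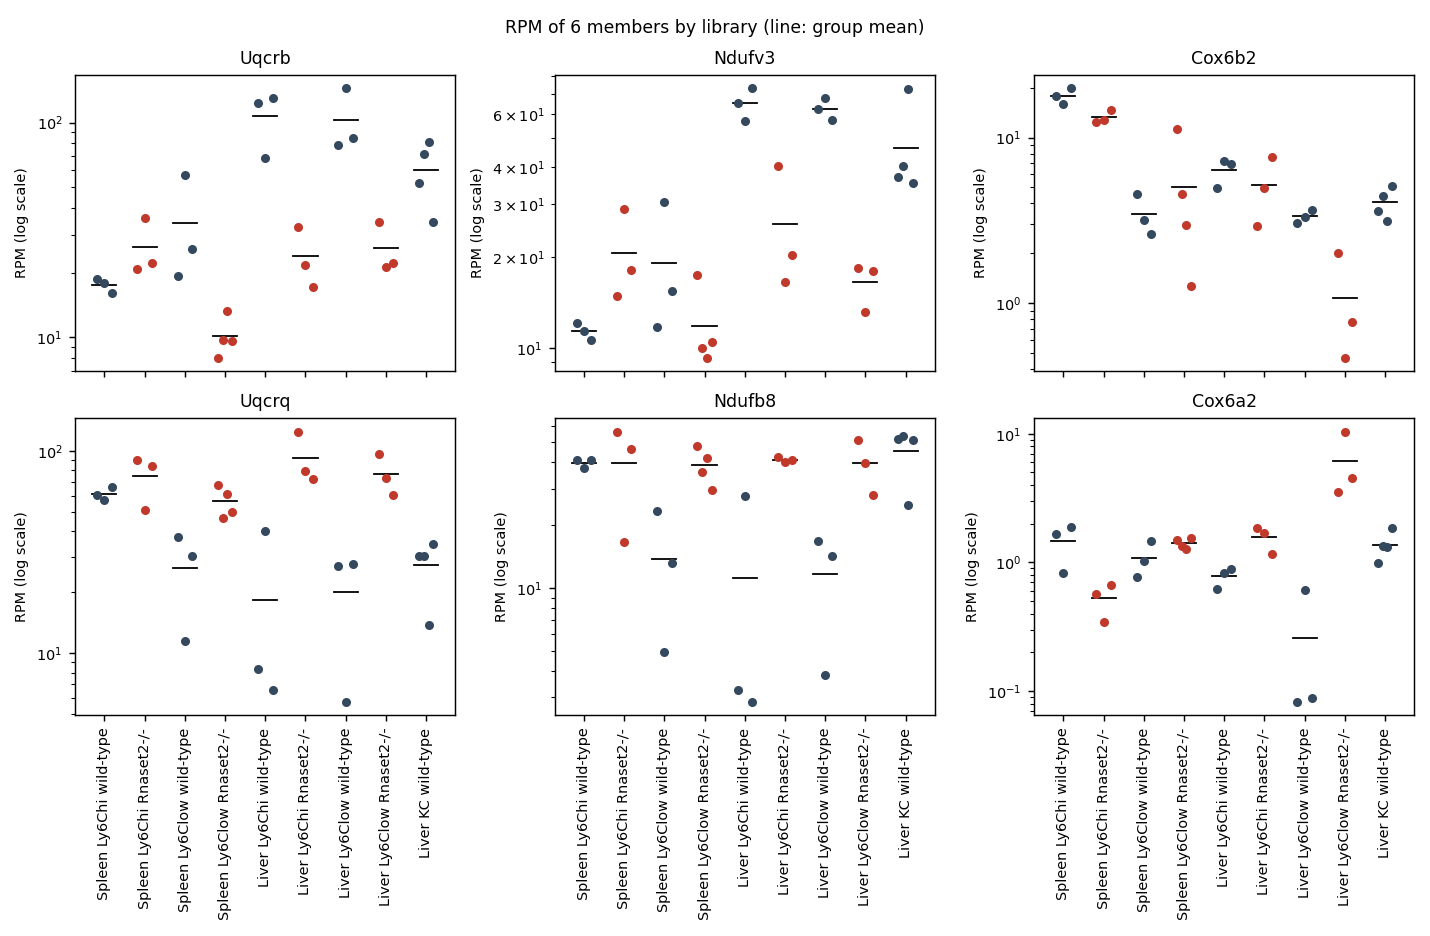
RPM on a log axis of Uqcrb, Ndufv3, Cox6b2, Uqcrq, Ndufb8 and Cox6a2 in every library (points, wild-type dark and Rnaset2-/- red), with group means as lines. In the liver, Uqcrb lies between 68.4 and 145 RPM in wild-type Ly6Chi and Ly6Clow libraries and between 17.2 and 34.5 RPM in Rnaset2-/- ones, whereas Uqcrq lies between 5.75 and 40.3 RPM and between 60.3 and 124 RPM.

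The opposite course of Uqcrb and Uqcrq, both subunits of complex III, was examined after their values were seen and is given as a description. The log2 ratio of Uqcrq to Uqcrb, in which only the course across libraries can be read because the genes are counted through different amplicons, lay between 1.68 and 2.04 in splenic wild-type Ly6Chi cells and between 2.21 and 3.07 in splenic Rnaset2-/- Ly6Clow cells. It lay between -4.32 and -0.76 in wild-type liver Ly6Chi and between -4.65 and -1.55 in wild-type liver Ly6Clow cells, and was 1.87 to 2.07 and 1.44 to 1.79 in the Rnaset2-/- groups. Kupffer cells had -2.56 to 0.01, splenic wild-type Ly6Clow cells -2.32 to 0.96 and splenic Rnaset2-/- Ly6Chi cells 0.51 to 2.11. Within groups, too, the ratio was not constant: splenic wild-type Ly6Clow replicate 2, splenic Rnaset2-/- Ly6Chi replicate 2, Kupffer cell replicate 3, liver wild-type Ly6Chi replicates 1 and 3 and liver wild-type Ly6Clow replicate 2 held the lowest Uqcrq of their groups, together with the lowest Ndufb8, Ndufb10 and Ndufb6, and the highest Uqcrb. In both liver Rnaset2-/- groups, by contrast, replicate 1 held the highest level of both genes, with Uqcrq at 124 and Uqcrb at 32.8 RPM in Ly6Chi and at 96.1 and 34.5 RPM in Ly6Clow cells.

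Whether the genotype difference itself varied between subsets and organs was tested with interaction terms, counted at an adjusted p below 0.05. All genes were counted in either direction together, so the directions given for members below have no share of all genes beside them. Between the splenic subsets 10 of 74 members passed (13.5%, against 15.7% of all genes), and all 10 were more negative in Ly6Clow than in Ly6Chi cells. The largest were Uqcrb (-2.16 ± 0.46, adjusted p = 0.00895), Uqcr10 (-1.63 ± 0.22, 0.00102) and Ndufv3 (-1.47 ± 0.44, 0.0399). The first 2 held under all 19 other settings, and that of Ndufv3 was lost under 13 of 19, among them each left-out library except splenic wild-type Ly6Clow replicate 1, splenic Rnaset2-/- Ly6Chi replicate 1 and splenic Rnaset2-/- Ly6Clow replicate 1 (adjusted p of the losses 0.0535 to 0.102). The count itself was 4 without wild-type Ly6Chi replicates 1 or 3 or Rnaset2-/- Ly6Chi replicate 2, 5 without wild-type Ly6Clow replicates 2 or 3, 6 without wild-type Ly6Chi replicate 2, Rnaset2-/- Ly6Chi replicate 3 or Rnaset2-/- Ly6Clow replicate 2 (the library with Y-linked reads), and 16 without Rnaset2-/- Ly6Clow replicate 1.

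Between the liver subsets 5 members passed (6.76%, against 10.3% of all genes), all more positive in Ly6Clow cells. They included Cox6a2 (2.04 ± 0.47, adjusted p = 0.0189), Sdhd (1.41 ± 0.37, 0.0316) and Ndufs1, a large iron-sulfur subunit of complex I (1.19 ± 0.28, 0.0211). Cox6a2 lay below 1 RPM in every wild-type library of these subsets. It entered the test only through the Rnaset2-/- libraries, in which it is high. Its term is therefore given as a description, although it is counted among the 5. The count was 15 without Rnaset2-/- Ly6Chi replicate 1, 0 without wild-type Ly6Clow replicate 3, 1 without wild-type Ly6Chi replicate 1 or Rnaset2-/- Ly6Chi replicates 2 or 3, and 2 without wild-type Ly6Chi replicate 3, wild-type Ly6Clow replicates 1 or 2 or Rnaset2-/- Ly6Clow replicate 3. The Sdhd interaction was lost without wild-type Ly6Chi replicates 1 or 3, wild-type Ly6Clow replicates 1 or 3, Rnaset2-/- Ly6Chi replicates 2 or 3 or Rnaset2-/- Ly6Clow replicate 3 (0.0576 to 0.0787), that of Ndufs1 without wild-type Ly6Chi replicate 1, wild-type Ly6Clow replicates 2 or 3 or Rnaset2-/- Ly6Chi replicate 2 (0.0518 to 0.0586), and that of Cox6a2 without wild-type Ly6Clow replicate 3 or Rnaset2-/- Ly6Chi replicate 3 (0.0541 and 0.0522).

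Between the organs, 15 members passed in Ly6Chi cells (20.3%, against 34.3% of all genes) and 16 in Ly6Clow cells (21.6%, against 27.1%). In Ly6Chi cells, 12 were more negative in the liver, led by Uqcrb (-3.02 ± 0.46, adjusted p = 0.000422) and Ndufv3 (-2.53 ± 0.47, 0.00154), and 3 more positive, led by Uqcrq (2.03 ± 0.70, 0.0411). The 3 include Cox6a2, which met the filter only with the liver Rnaset2-/- libraries. Uqcrq did not pass when any 1 of the 3 splenic wild-type, the 3 splenic Rnaset2-/-, liver wild-type replicates 1 and 3 or liver Rnaset2-/- replicate 2 was left out (0.0534 to 0.0997), and 31 members passed without liver Rnaset2-/- replicate 1. In Ly6Clow cells, Uqcr10 (2.64 ± 0.34, 0.000164), Cox6a2 (2.18 ± 0.42, 0.00221) and Sdhb (1.76 ± 0.29, 0.000887) were more positive in the liver under all 19 other settings. Uqcr10 was lower in splenic Ly6Clow and higher in liver Ly6Clow cells of Rnaset2-/- mice. Organ and the sex of the liver libraries cannot be told apart in these terms, and the part of the splenic library with Y-linked reads was not tested beyond leaving it out.

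Subsets were then compared within each organ and genotype. In wild-type spleen, Ly6Clow cells had 2 members higher and 8 lower than Ly6Chi cells, of 73 tested (2.74% and 11%), beside 13.8% and 19.8% of all genes. The members' median was -0.14 against 0.01 for all genes. With RPM as deposited, 0 were higher and 14 lower. Cox6b2 was at 17.8, 16.03 and 19.96 RPM in Ly6Chi and 4.54, 3.16 and 2.60 RPM in Ly6Clow cells and was lower by 1.99 ± 0.18 on the log2 scale (adjusted p = 9.17e-06). Ndufb8 (-1.54 ± 0.39, adjusted p = 0.00755) kept its call without any single library, and Uqcrq (-1.19 ± 0.33, 0.0122) lost it without Ly6Chi replicate 3 (0.0507). Of the 13 other settings and left-out libraries, Ndufb8 kept its call in 12, with adjusted p up to 0.0565. Uqcrq kept its call in 11, with adjusted p up to 0.108. Ly6Clow replicate 2 carried much of the rest: without it, the differences of Ndufb10 and Ndufb6 shrank from -1.01 and -0.98 to -0.50 and -0.55, those of Uqcrb and Ndufv3 from 0.91 and 0.74 to 0.48 and 0.37, and 0 members were called higher and 5 lower. Uqcrb, Ndufb10 and Ndufv3 also lost their calls without Ly6Chi replicates 1, 2 or 3, and Ndufb6 without replicates 1 or 3, with 0 called higher without any 1 of those and 1 without Ly6Clow replicate 3, where Ndufv3 was lost (0.0690).

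In Rnaset2-/- spleen, 1 member was higher and 17 lower in Ly6Clow cells, of 74 (1.35% and 23.0%), beside 13% and 15.1% of all genes, and the counts were 1 and 17 with RPM as deposited too. The members' median was -0.26 against -0.02 for all genes. Uqcr10 was lower by 1.35 ± 0.15 (adjusted p = 0.000717), Uqcrb by 1.26 ± 0.26 (0.00833), Ndufs6 by 1.07 ± 0.14 (0.00128) and Atp5e, the epsilon subunit of the ATP synthase, by 0.81 ± 0.11 (0.00190), and these 4 calls held in all 14 other settings. Atp5e was at 147, 140 and 148 RPM in Ly6Chi and 80.5, 75.7, 90.6 and 80.7 RPM in Ly6Clow libraries, without overlap. Cox6b2, at 12.4, 12.8 and 14.8 RPM against 11.2, 4.54, 2.98 and 1.27 RPM (-1.52 ± 0.47, adjusted p = 0.0360), and Cox6a2 (0.68 ± 0.20, 0.0293) lost their calls without any 1 library other than Ly6Clow replicate 1 (Cox6b2 0.0591 to 0.112, Cox6a2 0.0506 to 0.109), so that 0 members were then called higher. Cox6a2 lay below 1 RPM in all 3 Ly6Chi libraries and entered this test only through the Ly6Clow libraries.

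Fewer members were called between the subsets of the liver, and the difference between organs was not tested. In wild-type liver 0 members were higher and 1, Cox6b2, lower in Ly6Clow cells (of 73, 1.37%), beside 5.24% and 4.84% of all genes, and 17 members had an unadjusted p under 0.05. No share of all genes was counted at that unadjusted limit. The members' median was -0.26 against 0.02 for all genes. edgeR called 0 in both directions, and DESeq2 0 higher and 5 lower. The Cox6b2 difference (-0.84 ± 0.23, adjusted p = 0.0479), from 4.94, 7.18 and 6.98 to 3.06, 3.31 and 3.67 RPM, did not survive the loss of any 1 of the 6 libraries (0.0683 to 0.154). The counts were 1 higher without Ly6Chi replicate 1, and lower 2 without Ly6Chi replicate 2 and 0 without Ly6Chi replicates 1 or 3 or Ly6Clow replicates 1 or 3. With RPM as deposited 1 was called higher and 0 lower.

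In Rnaset2-/- liver 3 members were higher and 2 lower in Ly6Clow cells (4.05% and 2.70% of 74), beside 8.75% and 8.26% of all genes, and 2 and 6 with RPM as deposited. With the replicate number as a block, 5 were lower. Ndufs1, at 114, 100 and 163 RPM in Ly6Chi and 246, 235 and 321 RPM in Ly6Clow libraries, was higher by 1.26 ± 0.24 (adjusted p = 0.0173), and Cox6a2 by 1.48 ± 0.38 (0.0390) and Ndufv2 by 0.79 ± 0.17 (0.0253). Cox6b2 was lower by 1.45 ± 0.38 (0.0421) and Atp5sl by 0.88 ± 0.18 (0.0201). Only 1 Ly6Clow library held Cox6b2 at 1 RPM or more, so it met the filter through the Ly6Chi libraries. Its difference is given as a description. Counts of higher members were 7 without Ly6Chi replicate 1, 0 without Ly6Chi replicate 2 or Ly6Clow replicate 3 and 1 without Ly6Chi replicate 3 or Ly6Clow replicate 2, and 0 were lower without Ly6Chi replicates 2 or 3 or Ly6Clow replicates 2 or 3. All 5 calls were lost without Ly6Chi replicate 2 (adjusted p = 0.0698 to 0.127), and all but Ndufs1 without Ly6Chi replicate 3 or Ly6Clow replicate 2 (0.0608 to 0.149). Without Ly6Clow replicate 3 all 5 were lost (0.0505 to 0.110), and Ndufv2 was lost without Ly6Clow replicate 1 as well (0.0545).

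Kupffer cells, the resident macrophages of the liver sinusoids, were compared with Ly6Clow cells of either genotype. Against wild-type Ly6Clow cells, 4 members were higher and 20 lower in Kupffer cells, of 74 (5.41% and 27.0%), beside 26% and 24% of all genes. These directions depended on the scaling. With RPM as deposited 23 members were higher and 3 lower. The median of all genes then moved from 0.02 to 0.55 and that of the members from -0.23 to 0.32. How many of all genes were called with RPM as deposited was not counted. Under both scalings the members' median lay below that of all genes. Ndufv3 (-1.06 ± 0.24, adjusted p = 0.00347) and Ndufb5 (-1.05 ± 0.16, 0.000277) were called lower, but not with RPM as deposited, when their differences were -0.48 (adjusted p = 0.109) and -0.47, the latter under 1.5-fold. Kupffer cell libraries also held hepatocyte markers (5 of 6 listed in the table) at 1201 to 4076 RPM and endothelial markers at 2535 to 4929 RPM, against 47.1 to 111 and 113 to 260 RPM in the wild-type Ly6Clow cells, whose part was not tested.

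The following members kept their direction and call under both scalings and without any 1 library. Ndufaf7 was at 29.2, 27.3, 26.3 and 28.5 RPM in Kupffer cells, below the 53.8 to 66.4 RPM of the wild-type Ly6Clow libraries (-1.68 ± 0.16, adjusted p = 1.41e-05). Atp5j2, a membrane-sector subunit of the ATP synthase, was lower by 1.18 ± 0.21 (0.000730) and Uqcrb by 1.37 ± 0.30 (0.00327). Ndufv1, the subunit of complex I that binds NADH, was at 82.2, 87.2, 59.7 and 96.3 RPM against 25.7, 13.3 and 26.6 RPM and was higher by 1.31 ± 0.26 (0.00151), and Ndufb8 by 1.47 ± 0.43 (0.0148). Ndufs6 was higher by 0.88 ± 0.24 (0.00935) and Uqcr11 by 0.60 ± 0.16 (0.00938), but Ndufs6 lost its call without wild-type Ly6Clow replicate 3 (0.0547), and Uqcr11 without Kupffer cell replicate 2 (difference 0.51) or Ly6Clow replicate 1 (0.0555).

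Against Rnaset2-/- Ly6Clow cells, Kupffer cells had 2 members higher and 31 lower (2.70% and 41.9%), beside 26.3% and 19.4% of all genes, and 11 higher and 11 lower with RPM as deposited. The members' median was -0.53 beside 0.08 for all genes, and -0.00 beside 0.56 with RPM as deposited. Uqcrq was at 30.3, 30.1, 13.8 and 34.6 RPM against 60.3 to 96.1 RPM (-2.03 ± 0.31, adjusted p = 0.000963), and Ndufc2 at 20.4, 20.9, 21.0 and 17.5 RPM against 41.3 to 53.4 RPM (-1.73 ± 0.19, 0.000178). Cox6a2 (-1.87 ± 0.35, 0.00232), Uqcrh, the hinge protein of complex III (-1.63 ± 0.31, 0.00246), and Cyc1 (-1.57 ± 0.34, 0.00468) were lower as well, and these 5 held under all 14 other settings. Ndufv3 (0.87 ± 0.28, 0.0277) was higher, a call lost without Rnaset2-/- Ly6Clow replicate 2 (0.124) and without a filter (0.0504), and Cox6b2 (1.01 ± 0.33, 0.0321) was lost without Kupffer cell replicates 2 or 4 or Ly6Clow replicates 2 or 3 (0.0561 to 0.144). Thus 1 member was higher without Kupffer cell replicate 2 or Ly6Clow replicate 3 and 0 without Ly6Clow replicate 2. Cox6b2 reached 1 RPM in only 1 of the Ly6Clow libraries and met the filter through the Kupffer cell libraries. Its difference is given as a description. This comparison crosses genotype, cell type and sex, which cannot be told apart in it. Kupffer cell libraries had Xist at 647 to 949 RPM and Y-linked genes at 0. The Rnaset2-/- Ly6Clow libraries had Xist at 0 and Y-linked genes at 199 to 291 RPM.

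**Figure D4:**
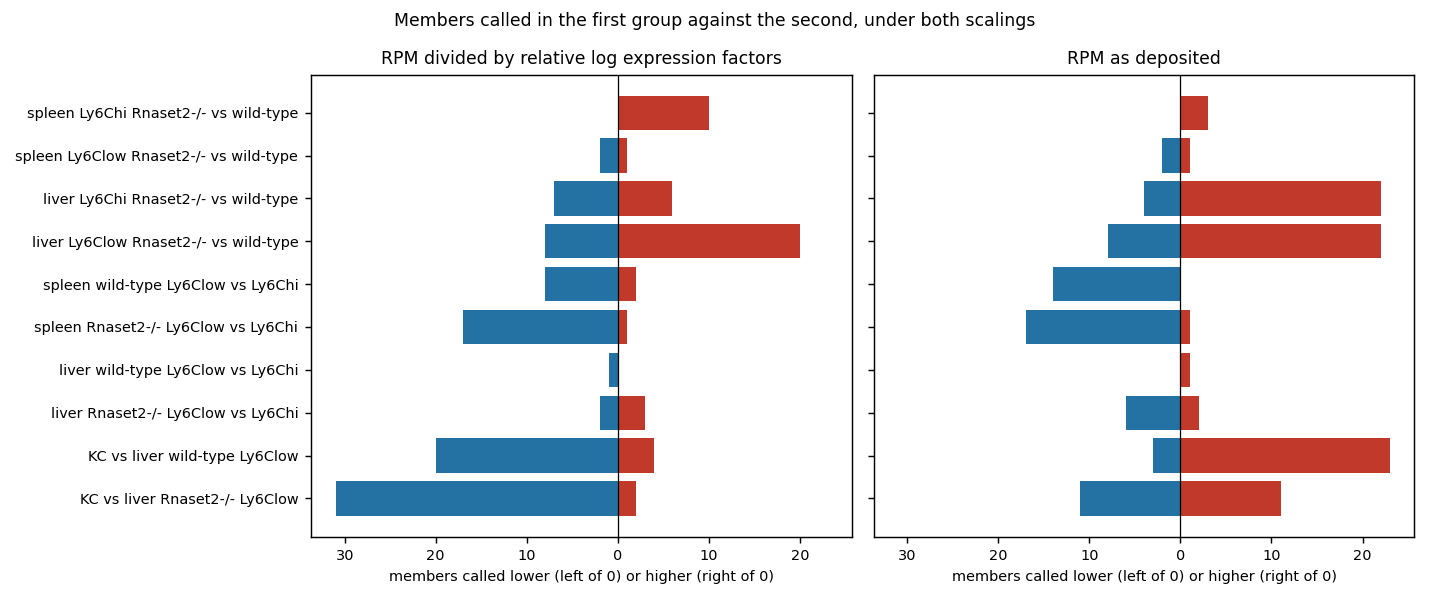
Number of members called higher (right of 0, red) or lower (left of 0, blue) in each comparison (KC, Kupffer cells), after RLE scaling in the left panel and with RPM as deposited in the right panel. Kupffer against wild-type Ly6Clow cells turns from 4 higher and 20 lower to 23 and 3, and liver Ly6Chi cells from 6 and 7 to 22 and 4, whereas Rnaset2-/- spleen keeps 1 and 17. The 1 higher member of Rnaset2-/- spleen after RLE scaling is Cox6a2, which entered only through the Ly6Clow libraries. Shares of all genes called were not counted with RPM as deposited.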

How the data were processed

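From 1 ng of total RNA of sorted cells the authors made libraries with an Ion AmpliSeq Transcriptome kit for mouse (a panel of gene-specific amplicons), sequenced them on an Ion Proton and counted reads with the AmpliSeqRNA plug-in. The deposited table gives RPM (each library summing to 1000000) for 23930 genes in 29 libraries. The submitters' notes name mm10; the aligner settings were not given in the sources used here. In every column 100% of values were whole multiples of 1 read (within 0.1 reads), which gave the recovered counts and the depth. Because each gene is read through its own amplicon, levels were not compared between genes, and the 3-read floor covers counting error only. Reads of near-identical processed copies could not be told apart.

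Groups followed organ, subset and genotype in the labels. Each library's RPM were divided by its relative log expression factor, a value of 1 was added and log2 taken, and genes with at least 1 RPM in 3 libraries of a comparison were fitted with limma 3.58.1 (trend; R 4.3.3) with Benjamini-Hochberg adjustment. The study's methods name DESeq2 after relative log expression scaling, with the same limits of 1.5-fold and an adjusted p of 0.05. Its results count genes past 1.5-fold and, separately, at a q value below 0.1. The recovered counts were also tested with edgeR 4.0.16 (quasi-likelihood, TMM) and DESeq2 1.42.0. Other alternatives were an added value of 0.1, no filter, RPM as deposited, 1 fit of all libraries, a replicate block and leaving out each library. An exact permutation test of 1 value could not go below p = 0.1 with 3 against 3 libraries, or 0.0571 with 4 against 3. The scripts were tested on simulated counts.

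Replicate numbers deviated together in every pair between the liver Rnaset2-/- subsets (correlations of deviations 0.52, 0.23 and 0.43). Only there did each number match its own number best. Weaker positive correlations in every pair were found between Kupffer cells and liver Rnaset2-/- Ly6Clow cells (0.12, 0.10 and 0.36). They were near 0 but positive between splenic wild-type and Rnaset2-/- Ly6Chi cells (0.0215, 0.0225 and 0.0088). Both of these comparisons are between different genotypes. The labels do not say what the numbers mark.

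Named in the text were a fixed roster of core subunits, the 5 members called higher and the 5 called lower with the largest change in each comparison, the 3 largest in each interaction, the 3 largest of each companion list and the 5 with the widest range of group means. The few others named complete a list of calls, or were chosen after their values were seen, as was the comparison of Uqcrb with Uqcrq. The members and lists were chosen with earlier results of these data known. Promoter windows came from RefSeq (GRCm38.p6), matched by symbol or synonym.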

Additional observations from a re-analysis of the deposited data

Results flagged for a closer look

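In groups of 4, 74 sets of values (30 named members and 7 sums) were searched for a library far from the others by Dixon's criterion, and 8 were found, where chance gives about 1 in 20. Replicate 1 of splenic Rnaset2-/- Ly6Clow cells stood above the other 3 libraries in the sum of all members (9911 RPM), in complex I (3754 RPM), in complex IV (1840 RPM) and in Ndufv3 (17.5 RPM). The same library had the highest neutrophil, erythroid and S phase sums of its group (38830, 718 and 778 RPM), and their part was not tested. Replicate 4 of that group was low in Cox5a (89.5 RPM). Kupffer cell replicate 3, which had the lowest Kupffer cell marker sum (5302 RPM) and the highest hepatocyte and endothelial sums (4076 and 4929 RPM), was high in Ndufv3 (72.5 RPM) and low in Ndufb8 (25.0 RPM), and replicate 2 was high in Uqcr11 (167 RPM).

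Genotype effects that differed between groups by an interaction term in limma were, for the splenic subsets, Uqcrb (-2.16), Uqcr10 (-1.63) and Ndufv3 (-1.47) on the log2 scale. For the liver subsets they were Cox6a2 (2.04), Sdhd (1.41) and Ndufs1 (1.19). In that test Cox6a2 entered only through the Rnaset2-/- libraries, so its value is a description. Between the organs they were Uqcrb (-3.02), Ndufv3 (-2.53) and Uqcrq (2.03) in Ly6Chi cells, and Uqcr10 (2.64), Cox6a2 (2.18) and Sdhb (1.76) in Ly6Clow cells. The liver terms carry the difference in Xist and Y-linked genes, which cannot be told apart from genotype.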

How the results depend on the processing

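Of 75 differences and interactions of named members, 35 kept their direction and their side of the threshold in every alternative, and none changed sign. Counts of called members moved more, by over 1.5 times, and are given as higher then lower. With RPM as deposited they were 3 higher in splenic Ly6Chi cells, 22 and 4 in liver Ly6Chi cells, 0 and 14 between the wild-type splenic subsets, 1 and 0 between the wild-type and 6 lower between the Rnaset2-/- liver subsets, 23 and 3 and 11 and 11 in Kupffer cells against wild-type and Rnaset2-/- Ly6Clow cells, and 6 for the splenic subset interaction. With 1 fit of all libraries (not run for the interactions) they were 5 higher in splenic Ly6Chi cells, 1 lower in splenic Ly6Clow cells, 15 higher in liver Ly6Chi cells, 0 and 3 between the wild-type splenic subsets, 3 lower between the wild-type and 5 and 6 between the Rnaset2-/- liver subsets, and 7 higher in Kupffer against wild-type Ly6Clow cells. Without a filter they were 0 and 1 in splenic Ly6Clow cells, 0 higher between the wild-type splenic subsets, 0 and 1 lower between the wild-type and the Rnaset2-/- liver subsets, 0 higher in Kupffer against Rnaset2-/- Ly6Clow cells and 5 for the splenic subset interaction. An added value of 0.1 gave 1 higher between the wild-type splenic and 1 lower between the Rnaset2-/- liver subsets. edgeR gave 0 higher in splenic Ly6Clow cells, 3 higher in liver Ly6Chi cells, 0 and 1 lower between the wild-type and the Rnaset2-/- liver subsets, 1 higher in Kupffer against Rnaset2-/- Ly6Clow cells and 3 for the liver subset interaction. DESeq2 gave 5 higher in splenic Ly6Clow cells, and 5 and 4 lower between the wild-type and the Rnaset2-/- liver subsets. Except where the alternative itself changes the genes, scaling or samples, the cause was not tested.

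With the replicate number as a block the counts were 5 higher in splenic Ly6Clow cells, 0 higher between the Rnaset2-/- splenic subsets, 0 lower between the wild-type and 5 lower between the Rnaset2-/- liver subsets, and the other 20 counts stayed within 1.5 times.

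Leaving out 1 library at a time gave ranges of 0 to 2 higher and 1 to 2 lower in splenic Ly6Clow cells, 1 to 9 and 4 to 16 in liver Ly6Chi cells, 3 to 9 lower in liver Ly6Clow cells, 0 to 2 and 5 to 9 between the wild-type and 0 to 1 higher between the Rnaset2-/- splenic subsets, 0 to 1 and 0 to 2 between the wild-type and 0 to 7 and 0 to 3 between the Rnaset2-/- liver subsets, and 0 to 3 higher in Kupffer against Rnaset2-/- Ly6Clow cells. For the interactions they were 4 to 16 (splenic subsets), 0 to 15 (liver subsets) and 10 to 31 (organs, Ly6Chi). With 3 libraries in most groups, 1 library decides many calls near the threshold, and depth limits only the members near the 3-read floor, such as Cox6a2.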

Other observations

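Other mitochondrial and metabolic genes were counted in the same genotype comparisons. Of 13 glycolysis genes, 4 were called higher and 1 lower in splenic Rnaset2-/- Ly6Chi cells, where Gpi1 and Aldoa, both early glycolytic enzymes, rose by 0.93 and 0.89 (log2; adjusted p in limma = 0.000374 and 9.65e-05), and 5 and 1 in liver Ly6Clow cells, where Hk3, a hexokinase of myeloid cells, rose by 1.89 and Ldha, which makes lactate, by 1.49, while Slc16a3, a lactate exporter, fell by 1.504. Splenic Ly6Clow and liver Ly6Chi cells had 1 and 0, and 2 and 0. Of 69 mitochondrial ribosome genes, 10 and 0, 2 and 0, 4 and 6, and 16 and 4 were called higher and lower in splenic Ly6Chi, splenic Ly6Clow, liver Ly6Chi and liver Ly6Clow cells, with Mrpl3 and Mrpl44 up by 1.62 and 1.75 in the last. The lists were not tested as sets. For 14 complex IV assembly genes and cytochrome c the counts were 2 and 0, 0 and 1, 4 and 2, and 3 and 0. Coa6, a copper-handling assembly factor, was higher by 1.06, 0.96 and 1.06 in splenic Ly6Chi, liver Ly6Chi and liver Ly6Clow Rnaset2-/- cells and lower by 1.93 in splenic Ly6Clow cells (15.2 to 2.71 RPM; adjusted p = 0.0224).

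For the 15 genes of the TCA cycle the counts were 1 and 0, 0 and 0, 0 and 3, and 4 and 2. Dld, a shared subunit of the large dehydrogenase complexes, rose by 0.61 in splenic Ly6Chi and fell by 1.29 in liver Ly6Chi cells. For the 14 regulators of mitochondrial biogenesis they were 1 and 2, 0 and 0, 2 and 1, and 3 and 3. Yy1 rose by 1.18 in splenic Ly6Chi and 0.71 in liver Ly6Chi cells, and Gabpa fell by 0.98 and 1.22 in liver Ly6Chi and Ly6Clow cells. For the 9 genes of coenzyme Q synthesis they were 2 and 0, 0 and 0, 0 and 0, and 2 and 2. The shares of all genes called in these comparisons are those given with the members.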
